A study of Mus musculus with 8 samples.

Results

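The late granule genes studied here are 10 mouse genes whose products fill the secondary and tertiary granules or the cytosol of maturing neutrophils, namely Ngp, Ltf, Lcn2, Camp, S100a8, S100a9, Cd177, Mmp8, Mmp9 and Pglyrp1. They were followed in splenic tumors grown from FL5.12, a pro-B line of the mouse that needs interleukin-3, and in the parental cells. All probe sets whose platform gene symbol was one of these names were taken, which gave 11 of the 22690 probe sets of the array (10 of 12393 named genes), 2 of them for Mmp9 and none shared with another gene. The tumor samples came from the spleens of 3 nude mice that had received the transfected cells through a vein, and each tumor was measured on 2 arrays. They were set against the injected parental line, a stable transfectant of FL5.12 with Bfl-1DC and p53DD, also on 2 arrays. Every group therefore carried Bfl-1DC and p53DD. The same culture protocol, with WEHI-3B supernatant as the interleukin-3 source, stands on the tumor and parental labels, which do not say if tumor cells passed through culture, if the line was 1 clone, or how old the mice were. Nor do they say if the 2 arrays of a source share an RNA extraction. The 2 arrays of a source are called its second and first array, after the replicate numbers in the labels. Values are MAS5 signals, an arbitrary linear scale on which all arrays share a trimmed mean of about 150, and the signal of 1 probe set is not comparable with that of another.

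Neutrophils fill their granules in waves as they mature. Proteins made early, such as myeloperoxidase, go to primary granules, those made later go to secondary and then tertiary granules, and calprotectin, the pair S100a8 and S100a9, fills the cytosol of the late stages. Transcription factors of the C/EBP family, above all C/EBP epsilon, are known to switch on secondary granule genes. Nude mice have no thymus, but they make granulocytes.

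The median signal of the 8 arrays lay between 32.4 and 37.9, and the 40th percentile of an array, used as a bound for low signal, between 15.6 and 20.6. Only probe sets above that bound on 2 or more arrays entered the fits, which left 14897 probe sets. Arrays of the same number deviated together across sources, with correlations of 0.434 to 0.594 over the probe sets. The defining genes of the labelled pro-B identity were weak. Of 14 pro-B and B lineage genes, 9 did not pass the bound, among them Pax5, Ebf1, Rag1, Rag2, Vpreb1 and Dntt, and the list's summed signal was 480 to 668 on tumor arrays and 265 to 283 on parental arrays. No label ties the parental arrays to different cultures, and p-values measure only the spread between these samples, which may be technical.

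Genes of the late granule set were higher in the tumors at 9 of 11 probe sets, counting those whose 3 tumor means all lay above both parental arrays, against 21.2% of all probe sets and 19.4% of those above the low-signal bound. The 2 exceptions were Camp and Mmp8. At 5 probe sets (Ngp, Ltf, Lcn2, Cd177 and Pglyrp1) all 6 tumor arrays exceeded both parental arrays, against 8.91% of all. The members were chosen with earlier results of these data known, so these counts are descriptions. Of the 9 probe sets that passed the low-signal bound, 6 did so only through tumor arrays. Ngp and Pglyrp1 rose by limma over the probe sets kept, so that 2 of 11 (9 tested) were called up, beside 0.497% of those tested that were called up and 0.698% called in either direction. With no filter on low signal limma called 0 of 11 up, beside 0.0796% of all, and 6 had an unadjusted p under 0.05. Of all 22626 probe sets, 1827 were up at that unadjusted level. The median change over the 11 was 1.58 on the scale of log2(signal + 16), with 2.16, 0.79 and 2.03 in tumors 1, 2 and 3, and the median over all probe sets tested was 0.0079. Without the second array of tumor 1 the median was 0.94. In RNA of bulk samples such as these, more cells of a type and more RNA per cell cannot be told apart.

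**Figure D1:**
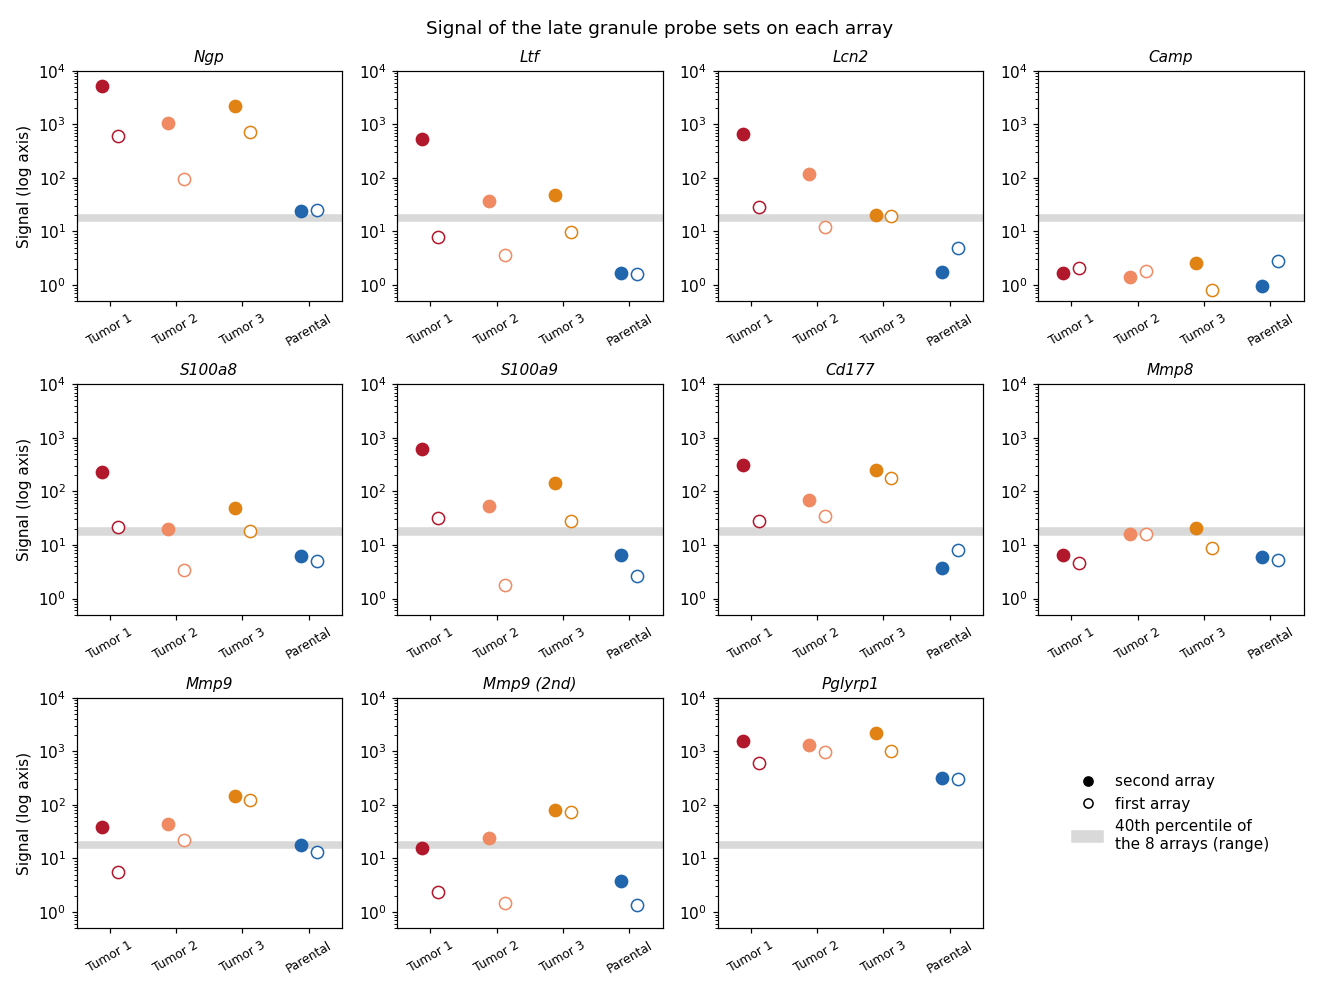
Signal (log axis) of each late granule probe set on the second (filled) and first (open) array of tumors 1, 2 and 3 and of parental cells; the grey band is the range of the arrays' 40th percentiles, 15.6 to 20.6. Ngp and Pglyrp1 lie above the band on every array, Camp lies below it on every array, and the second tumor arrays lie above the first in most panels.

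Ngp, the neutrophilic granule protein and a relative of the cathelicidins, showed the widest gap between tumors and parental cells. Its signal was 5263 and 599 on the second and first arrays of tumor 1, 1068 and 94.0 on those of tumor 2 and 2169.6 and 714 on those of tumor 3, against 24.5 and 25.1 on those of the parental cells. All tumor arrays were above the parental ones, and tumor 2 gave the lowest tumor values. The mean was 1651 ± 1189 (SD, n = 3 tumors) in tumors and 24.8 ± 0.43 (SD, n = 2 arrays) in parental cells, and the log2 change was 4.50 ± 0.64 (SE, 95% interval 2.97 to 6.03, limma adjusted p = 0.0414). The F test over the 3 tumors gave an adjusted p of 0.693, and the ranges of tumors 1 and 3 and of tumors 3 and 2 overlapped. Ngp was not called without tumor 1 (0.0753), tumor 3 (0.0912), parental replicate 1 (0.181) or parental replicate 2 (0.187), and was still called without the second array of tumor 1 (0.0393), a comparison chosen after seeing the data. It also missed the threshold with quantile normalization (0.0584), a pseudocount of 1 (0.0691) or 64 (0.0929), a trended robust prior (0.0945) and no filter (0.132), and was called in 8 of 22 alternatives.

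Ltf encodes lactoferrin, the iron-binding protein that typifies secondary granules. It read 537 and 7.95 on the second and first arrays of tumor 1, 36.4 and 3.62 on those of tumor 2 and 47.3 and 9.59 on those of tumor 3, against 1.71 and 1.61 on the parental arrays. Only the second arrays of the tumors exceeded the low-signal bound. The change was 1.58 ± 0.51 (adjusted p = 0.224), so Ltf did not pass, and without the second array of tumor 1 the change was 0.83.

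Lcn2 encodes lipocalin-2, which withholds iron from bacteria by binding their siderophores. Its signals were 669 and 28.2 on the second and first arrays of tumor 1, 119 and 12.1 on those of tumor 2 and 20.6 and 19.1 on those of tumor 3, against 1.76 and 4.87 in parental cells. Tumor 3, which had the second highest Ngp, had the lowest mean of Lcn2 among tumors, and its change of 0.90 there compares with 3.18 in tumor 1 and 1.68 in tumor 2. Over the 3 tumors the change was 1.92 ± 0.60 and did not pass (0.213), and it was 1.26 without the second array of tumor 1.

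Camp, the only mouse cathelicidin and the precursor of the antimicrobial peptide CRAMP, stood at the floor throughout. The 6 tumor arrays read 0.79 to 2.56 (median 1.73), against 0.97 and 2.80 in parental cells, and 0 of 8 arrays exceeded the low-signal bound. Camp and Ngp lie on chromosome 9 with 8 protein-coding genes between them in the RefSeq order, and Ltf is on the same chromosome, 20 genes from Ngp. A floor signal of 1 probe set gives a bound on that probe set's reading and no measure of the gene.

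The upstream sequences of 5 members are printed side by side: Ngp and Camp as related genes on chromosome 9, S100a8 and S100a9 as the adjacent calprotectin pair, and Pglyrp1, which rose as Ngp did. The probe set of Camp read at the floor, so whether Camp differed from Ngp in expression is not known. Each is the 150 bases before the start of the gene, 5′ to 3′, from RefSeq (GRCm38.p6). Of the 10 genes, 9 matched that table by symbol. Capitals mark TTGCNNAA (a pattern bound by C/EBP factors), GAGGAA (the core bound by PU.1) and, as the core promoter element, TATAAA, on either strand.
Ngp, chr9:110419658-110419807, plus strand: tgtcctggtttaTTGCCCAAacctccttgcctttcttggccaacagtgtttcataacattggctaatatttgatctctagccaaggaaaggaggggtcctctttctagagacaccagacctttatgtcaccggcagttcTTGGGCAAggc
Camp, chr9:109849457-109849606, minus strand: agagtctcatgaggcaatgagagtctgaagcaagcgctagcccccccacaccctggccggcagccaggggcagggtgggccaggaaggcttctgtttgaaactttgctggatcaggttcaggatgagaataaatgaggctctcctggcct
S100a8, chr3:90668921-90669070, plus strand: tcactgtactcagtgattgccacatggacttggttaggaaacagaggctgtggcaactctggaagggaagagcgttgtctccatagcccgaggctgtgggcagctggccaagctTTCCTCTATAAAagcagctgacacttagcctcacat
S100a9, chr3:90695722-90695871, minus strand: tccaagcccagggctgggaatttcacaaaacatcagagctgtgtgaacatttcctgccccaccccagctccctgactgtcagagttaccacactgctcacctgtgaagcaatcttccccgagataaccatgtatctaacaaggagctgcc
Pglyrp1, chr7:18884540-18884689, plus strand: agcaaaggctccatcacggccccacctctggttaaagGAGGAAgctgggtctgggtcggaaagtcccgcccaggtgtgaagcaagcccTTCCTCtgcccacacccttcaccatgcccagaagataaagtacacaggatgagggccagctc
Ngp held TTGCNNAA at 2 places, Pglyrp1 held GAGGAA at 2 places, S100a8 held GAGGAA, as its reverse complement, directly before the core promoter element with no shared base, and Camp and S100a9 held none in the stretch shown. In the 250 bases before the start, TTGCNNAA was found in 5 of the 9 promoters (Ngp, Ltf, Lcn2, S100a9 and Mmp8), against 9.56% of 32851 promoters in the table. GAGGAA was found in 6 of 9, against 23.3% of all, and TATAAA in 2 of 9 (S100a8 and Cd177), against 12.4% of all. These matches describe letters and do not show binding.

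S100a8 and S100a9 form calprotectin, which chelates zinc and manganese and signals through TLR4. They are direct neighbours on chromosome 3. S100a9 read 608 and 31.9 on the second and first arrays of tumor 1, 54.0 and 1.82 on those of tumor 2 and 144 and 27.8 on those of tumor 3, against 6.48 and 2.68 in parental cells. S100a8 read 231 and 22.0 on the second and first arrays of tumor 1, 20.3 and 3.38 on those of tumor 2 and 49.4 and 17.9 on those of tumor 3, against 6.33 and 5.07 in parental cells. Both followed the order tumor 1, tumor 3, tumor 2, parental cells, and in both the first array of tumor 2 lay below the higher parental array, so groups overlapped. The changes were 1.96 ± 0.59 (adjusted p = 0.203) for S100a9 and 1.19 ± 0.49 (0.312) for S100a8, and neither passed. Without the second array of tumor 1 they were 1.35 and 0.74. The S100a8 probe set is of a type that can detect related transcripts.

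Cd177 encodes a surface protein of neutrophils and of their secondary granule membranes. Its signals were 310 and 28.3 on the second and first arrays of tumor 1, 69.1 and 34.1 on those of tumor 2 and 251 and 181 on those of tumor 3, against 3.68 and 7.92 in parental cells. Every tumor array was above the parental ones. The mean was 146 ± 84.8 in tumors (SD, n = 3 tumors) and 5.80 ± 3.00 in parental cells (SD, n = 2 arrays). Its change of 2.49 ± 0.48 did not pass (limma adjusted p = 0.101). It passed without tumor 2 (0.0255), but not without tumor 1 (0.184) or tumor 3 (0.0852), and was called in 2 of 22 alternatives.

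Mmp8, the collagenase of secondary granules, and Mmp9, the gelatinase of tertiary granules, are the metalloproteinases of the set. Mmp8 read 4.58 to 20.8 on tumor arrays (median 12.5), against 6.01 and 5.24 in parental cells, with 1 of 8 arrays over the low-signal bound. Mmp9 read 39.5 and 5.67 on the second and first arrays of tumor 1, 44.2 and 21.9 on those of tumor 2 and 146 and 122 on those of tumor 3, against 17.6 and 13.3 in parental cells. Its other probe set gave 79.2 and 72.6 in tumor 3, and 1.47 to 23.8 on the other tumor arrays, against 3.77 and 1.33 in parental cells. Tumor 3 thus stood above both other tumors at both probe sets, with no overlap, whereas tumors 1 and 2 overlapped. Over the 3 tumors the changes were 1.00 ± 0.57 and 1.07 ± 0.56 and did not pass (0.446 and 0.408). Without tumor 3 they were 0.38 and 0.45.

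Pglyrp1, a peptidoglycan recognition protein of tertiary granules that acts on bacteria, had the smallest standard error of the members tested for the tumor change. It read 1585 and 608 on the second and first arrays of tumor 1, 1290.3 and 962 on those of tumor 2 and 2231 and 1017 on those of tumor 3, against 317 and 304 in parental cells. The parental signal was far above the low-signal bound, so this gene was already measured in the injected line. The tumor mean was 1282 ± 296 (SD, n = 3 tumors) and the parental mean 311 ± 8.64 (SD, n = 2 arrays), a log2 change of 1.88 ± 0.21 (95% interval 1.37 to 2.38, adjusted p = 0.0204). The change was 1.61, 1.79 and 2.22 in tumors 1, 2 and 3. Pglyrp1 was called without any 1 of the tumors, but not without parental replicate 1 (0.142), parental replicate 2 (0.143) or the second array of tumor 1 (0.153). It was called in 14 of 22 alternatives.

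**Figure D2:**
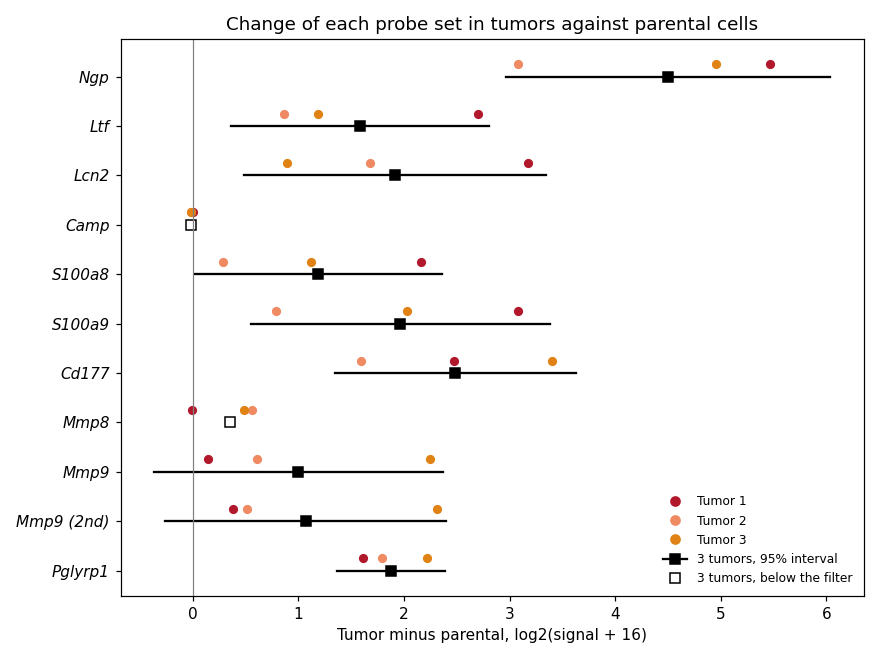
Tumor minus parental difference of each probe set on the scale of log2(signal + 16): black squares are the mean of 3 tumors with 95% intervals, open squares are the 2 probe sets below the filter, and coloured points are tumors 1, 2 and 3. Ngp (4.50) and Pglyrp1 (1.88) rose, while the intervals of both Mmp9 probe sets include 0.

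Of the 11 probe sets, 9 passed the bound on low signal, and 6 of those passed only through tumor arrays (Ltf, Lcn2, S100a8, S100a9, Cd177 and the weaker Mmp9 probe set), so their being above parental cells is in part a matter of selection. In the fit with the replicate number as a block and a mean per source, where the spread is that between duplicate arrays, 5 probe sets rose: Ngp (0.0058), Pglyrp1 (0.0065), Cd177 (0.0254) and both of Mmp9 (0.0324 and 0.0239). That is 5 of 11 (9 tested), beside 7.4% of those tested called up in this fit. With the replicate number as a block and the source as a random block, limma called 0 of the 9 up (Ngp 0.114, Pglyrp1 0.0784), beside 0.436% of those tested, and 3 had an unadjusted p under 0.05. Of the 14897 tested, 1085 were up at that unadjusted level.

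The tumors were next compared with each other, with the spread taken between duplicate arrays. Mmp9 had the lowest p among the members. Against parental cells, both Mmp9 probe sets were called in tumor 3, with 2.25 (limma adjusted p = 0.0409) and 2.31 (0.0301), and these were the 2 of 11 (9 tested) called there, beside 1.66% of those tested called up. Tumor 3 is 1 mouse on 2 arrays, so these calls set its difference against the spread between duplicate arrays, not between mice. The weaker Mmp9 probe set passed the bound through tumor arrays only, 2 of them from tumor 3. In tumors 1 and 2 the Mmp9 changes were 0.15 to 0.61, and limma called 0 members up in either, beside 1.73% and 0.973% of those tested, with 6 and 2 members at an unadjusted p under 0.05. At that level 1396 and 1163 of the 14897 tested were up in tumors 1 and 2. Among the members the lowest adjusted p there was that of Ngp in tumor 1 (0.0616). The F test over the 3 tumors called 0 of the 9 members tested, beside 1.26% of those tested, with 2 at an unadjusted p under 0.05, both of Mmp9 (0.0028 and 0.0023, adjusted 0.111 and 0.102). Over all probe sets tested, 1737 of 14897 had an unadjusted p under 0.05 in that F test. With the replicate block both Mmp9 probe sets passed (0.0162 and 0.0154), beside 5.28% of those tested. Ngp, Ltf, Lcn2, S100a8 and S100a9 were highest in tumor 1, Cd177, Pglyrp1 and Mmp9 in tumor 3, and the F test's adjusted p of these members other than Mmp9 was 0.588 to 0.876.

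The arrays of each tumor also differed from each other. The second array read higher than the first in all 3 tumors at 10 of 11 probe sets, against 24.4% of all probe sets, and Camp was the exception. This count is a description too, as the members were chosen with earlier results known. For Ltf the second array held 67.6, 10.0 and 4.94 times the signal of the first in tumors 1, 2 and 3. For Lcn2 these ratios were 23.8, 9.88 and 1.08, and for S100a8 10.5, 6.01 and 2.75. Ngp and S100a9 had their highest ratio in tumor 2, with 8.78, 11.4 and 3.04 for Ngp and 19.0, 29.7 and 5.17 for S100a9 in tumors 1, 2 and 3. Signals under the low-signal bound enter some of these ratios, so that their size is uncertain. Between the parental arrays the second was higher at 7 of 11 probe sets, with ratios from 0.346 for Camp to 2.83 for the weaker Mmp9 probe set. The 2 members with both parental arrays above the bound had parental ratios of 0.976 (Ngp) and 1.04 (Pglyrp1).

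Ngp, S100a9 and Pglyrp1 were higher on the second arrays of the tumors by limma with the tumor as a block, so that 3 of 11 (9 tested) were called up, beside 2.66% of those tested that were called up and 5.69% called in either direction. The differences were 2.66 ± 0.33 for Ngp (adjusted p = 0.0287), 2.51 ± 0.36 for S100a9 (0.0337) and 0.97 ± 0.20 for Pglyrp1 (0.049). Ltf (2.42, 0.0716), S100a8 (1.52, 0.0628), Lcn2 (2.10, 0.103), Cd177 (1.36, 0.116) and Mmp9 (0.75, 0.0893, and 0.69, 0.0985) did not pass. The median difference of the 11 was 2.70, 0.90 and 0.56 in tumors 1, 2 and 3 and 0.051 between the parental arrays, beside -0.0071 over all probe sets in the tumors. At 8 of the 11 probe sets both parental arrays lay under the low-signal bound, which holds their parental difference near 0. With the RNA extraction of duplicate arrays not stated, a difference between samples and one between array runs cannot be told apart here. A direct test of whether the second-to-first difference was unlike in tumors and parental cells, added after seeing the data, called 0 of the 9 members and 0% of those tested by limma, with 2 members at an unadjusted p under 0.05 (Ngp 0.0068 and S100a9 0.0208). In that test 851 of the 14897 probe sets had an unadjusted p under 0.05.

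No member kept its second-array call without each tumor in turn. Ngp was lost without tumor 1 (0.0783) or tumor 2 (0.105), S100a9 without tumor 2 (0.105) or tumor 3 (0.0513), and Pglyrp1 without tumor 1 (0.138), tumor 2 (0.105) or tumor 3 (0.113). Lcn2 passed without tumor 3 (0.0463).

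**Figure D3:**
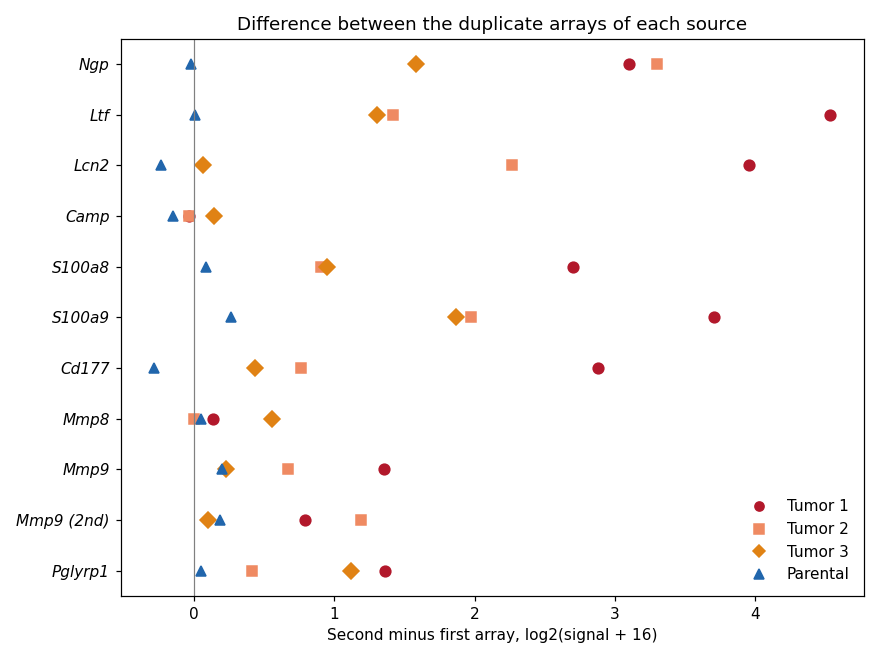
Second minus first array of each source for every late granule probe set, on the scale of log2(signal + 16), with tumors 1, 2 and 3 and parental cells as separate marks. Most tumor marks lie right of 0, with Ltf in tumor 1 at 4.53, and parental marks lie between -0.28 and 0.27.

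The tumor change also depended on which arrays stood for the tumors. Taken from the second tumor arrays alone, Ngp changed by 5.83 (adjusted p = 0.0081) and Pglyrp1 by 2.36 (0.0133), and the median of the 11 probe sets was 2.36. These were 2 of 11 (9 tested) called up, beside 0.611% of those tested. On the first tumor arrays alone Ngp changed by 3.17 (0.154) and Pglyrp1 by 1.39 (0.0933), the median was 0.71, and limma called 0 members up, beside 0.322% of those tested, with 4 at an unadjusted p under 0.05. Of the 14897 tested, 1160 were up at that unadjusted level. Among arrays of number 2 only the median was 2.33, and among those of number 1 only it was 0.75. Every one of these settings kept Ngp and Pglyrp1 above 0.

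Genes that act with the members gave a mixed picture. Of 8 primary granule genes measured, all of which passed the bound, Mpo, myeloperoxidase, rose by 6.19 ± 0.23 (adjusted p = 0.000279) and the other 7 did not pass. The primary granule median was 1.02 in tumors against parental cells and 0.14 between second and first tumor arrays, where limma called 0 members up. Mpo itself read 1578 and 1802 on the second and first arrays of tumor 1, 2669 and 2727 on those of tumor 2 and 3401 and 1560.3 on those of tumor 3, against 16.4 and 12.1 in parental cells. Its second array was thus the lower one in tumors 1 and 2. Among 17 other late granule and cytosol genes of neutrophils, 10 passed the bound and 2 rose in tumors, Anxa1 (4.91, 0.0422), an annexin of granules, and Lyz2 (2.77, 0.0011), lysozyme. On the second tumor arrays 5 of those 10 rose: Slpi, an inhibitor of neutrophil elastase (1.31, 0.0265), Lyz2 (2.74, 0.031), the protease gene Adam8 (1.47, 0.0352), Anxa1 (1.30, 0.0411) and Ncf4 of the NADPH oxidase (0.66, 0.0436). The second parental array was also the higher one for Adam8 (465 against 115), Anxa1 (105 against 14.1), Ncf4 (1104 against 339) and Slpi (67.4 against 38.1). Lyz2 read 16.6 and 18.5 on the second and first parental arrays.

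Several genes of late neutrophils were above the low-signal bound on the second array of tumor 1 only. Haptoglobin, Hp, a secondary granule protein, read 101 there and 1.38 to 2.30 on the other tumor arrays, against 1.40 and 0.92 in parental cells. Wfdc21 read 196 there and at most 14.2 on the other tumor arrays, against 1.39 and 6.67 in parental cells. Trem1, an activating receptor that can bind Pglyrp1, read 32.0 there and 1.68 to 11.9 elsewhere in tumors, against 1.57 and 1.43 in parental cells. These genes did not pass the bound and were not tested, and they were picked for mention with their values known. Chil3 (0.65 to 7.78), Orm1 (0.305 to 1.10) and Cxcr2 (1.56 to 4.09) stayed at the floor on all 8 arrays.

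Of 15 surface receptor genes of mature neutrophils, 12 passed the bound and limma called 0 in tumors against parental cells, with the lowest adjusted p for Itgam, the CD11b integrin chain (2.24, 0.0853), and Clec4d, a C-type lectin (-1.42, 0.248). On the second tumor arrays 3 rose: Clec4e (2.03, 0.0248), Itgam (1.46, 0.0265) and Ceacam1 (2.34, 0.0431). For Clec4e (142 against 42.1) and Ceacam1 (71.087 against 30.025) the second parental array was also the higher one. Itgam read 8.17 and 10.5 on the second and first parental arrays, both under the bound. Csf3r, the receptor of the granulocyte growth factor G-CSF, did not follow the members, with 0.22 in tumors (0.792) and 0.03 between arrays (0.935).

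Transcription factors of granulocyte maturation were measured with 14 of 15 listed genes, and 10 passed the bound. The gene not measured was Cebpe, which encodes C/EBP epsilon. Cebpa, of the same family, read 0.55 to 5.91 over the 8 arrays, and Cebpb changed by 0.25 (limma adjusted p = 0.627). The changes of 7 of the 14 were above 0. Limma called 0 in tumors against parental cells. The lowest p were those of Spi1, which encodes PU.1 (1.09, adjusted p = 0.116), and Myb (0.40, 0.324). On the second tumor arrays Cebpd, C/EBP delta (1.14, 0.0337), Spi1 (0.78, 0.0349) and Id2 (0.98, 0.0426) rose and Myc fell by 0.63 (0.0431). The second parental array was also the higher one for Cebpd (172 against 86.9), Id2 (67.8 against 30.5) and Spi1 (152 against 134). For Myc it was the lower one (772 against 893). Gfi1, a repressor needed for neutrophil formation, read 27.5 on the second array of tumor 1 and 0.19 to 3.98 on the other tumor arrays, against 0.40 and 2.58 in parental cells.

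Partners, receptors and inhibitors of the members' products were measured with 20 genes, of which 15 passed the bound and 1 rose, the endotoxin co-receptor gene Cd14 (2.81 ± 0.34, 0.0265). Prtn3, which encodes proteinase 3, had 2.22 (0.159), and Itgb2, the partner chain of CD11b, 0.80 (0.378). Timp1, the main inhibitor of Mmp9, stayed under the bound, with at most 12.7 in tumors, against 11.7 and 13.4 in parental cells. Timp2, another metalloproteinase inhibitor, was higher on second tumor arrays (0.93, 0.0379), as were Cd14 (2.58, 0.0248) and Itgam. Of 16 genes of inducing cytokine signals, 12 passed the bound, 0 rose and 1 fell, Socs3, the feedback inhibitor of G-CSF and interleukin-6 signalling (-1.20 ± 0.16, 0.0361). Il6 itself changed by -0.59 (0.77).

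Markers of other cell types moved with the tumors or with the second arrays. Of 9 eosinophil genes Epx (7.05, adjusted p = 7.41e-05) and Prg2 (5.78, 0.0181) rose in tumors, and the changes of 7 were above 0. The receptor genes Ccr3 (0.51 to 9.25 over the 8 arrays) and Il5ra (0.79 to 5.84) stayed under the bound, and Gata1 changed by -0.82 (0.541). The eosinophil list's summed signal was 5423 to 10521 on tumor arrays and 1094 to 1514 on parental arrays. Such sums add probe sets of unlike response, and the parental sum is mostly Gata2 (1169 and 742 on the second and first arrays) and Gata1 (305 and 306), which are not particular to eosinophils. Of 14 macrophage and monocyte genes 6 passed the bound and Ccr2 (5.01, 0.007), Lgals3 (4.18, 0.0142) and Cd14 rose, with a summed signal of 2383 to 5402 in tumors and 227 to 1083 in parental cells. On second tumor arrays Adgre1 (1.44, 0.0248), Csf1r (1.68, 0.0346) and Cd14 were higher. The second parental array was also the higher one for Csf1r (555 against 11.5) and Adgre1 (237 against 96.9). Cd14 read 2.22 and 1.35 on the second and first parental arrays, both under the bound. The other 8 macrophage and monocyte genes did not pass the bound. Of these, Cd163, C1qa, C1qc and Marco read at most 3.09 on every array, C1qb 3.84 to 20.2, Mrc1 10.3 to 17.4 and Vcam1 4.88 to 20.3. Mpeg1 read 68.6 on the second array of tumor 2 and at most 19.3 on the other arrays. Among mast cell and basophil genes Cpa3 (2.01, 0.0314) and Cma1 (2.09, 0.046) were higher on second tumor arrays, and the list's median also differed between the parental arrays, by 0.74, where that of the late granule genes differed by 0.029. The mast cell and basophil sum was 2093 to 10291 in tumors and 968 to 4077 in parental cells. Gata2, also in the eosinophil list, read 1471 to 2040 on tumor arrays. Fcer1a read 6654 and 5067 on the second and first arrays of tumor 1 and 16.3 to 50.9 in tumors 2 and 3. Cma1 read 2047 and 180 on the second and first parental arrays. The list's median change in tumors against parental cells was 0.079, and limma called 0 of its genes there. The part of these cell types in the late granule values was not tested.

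**Figure D4:**
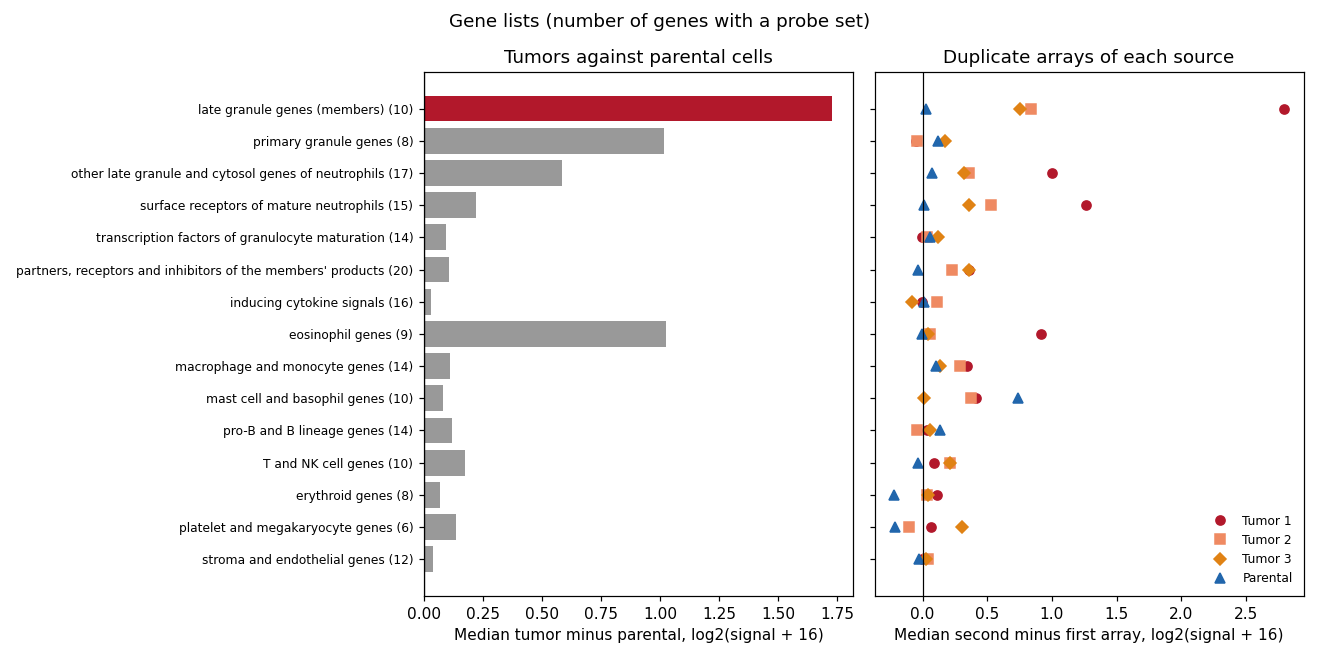
Left, median difference of tumors minus parental cells for each gene list, on the scale of log2(signal + 16), over the genes with a probe set (number in brackets), late granule genes in red. Right, median second minus first array of tumors 1, 2 and 3 and of parental cells. Late granule genes have medians of 1.73 on the left and 2.79 in tumor 1 on the right.

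Counted by gene, with 1 probe set each, the late granule list had a median of 1.73 in tumors against parental cells, beside 1.03 for eosinophil, 1.02 for primary granule, 0.59 for other late granule and cytosol genes, 0.22 for neutrophil surface receptors and 0.11 for macrophage genes. Between second and first tumor arrays its median was 1.44, beside 0.66 for other late granule and cytosol genes, 0.55 for neutrophil surface receptors, 0.40 for macrophage genes, 0.25 for eosinophil genes and 0.14 for primary granule genes. Medians of T and NK cell genes (0.17 and 0.35), erythroid genes (0.066 and 0.091), platelet genes (0.14 and 0.091), stroma and endothelial genes (0.036 and 0.021) and pro-B and B lineage genes (0.12 and 0.089) were also below those of the late granule list. These medians take in genes near the floor. Over genes above the bound alone, which favours genes high in tumors, the order differed, with medians in tumors against parental cells of 1.90 for late granule, 2.66 for T and NK cell (4 genes), 1.77 for macrophage, 1.63 for eosinophil and 0.71 for other late granule and cytosol genes. All are descriptions, and lists were not tested against each other. The genes called, or with the lowest p, were Cd3g of the T cell receptor complex (4.46, 0.0011), Cd79b of the B cell receptor (1.31, 0.0414), Hemgn (-1.89, 0.0925) and Trim10 (1.24, 0.0926) of red cell precursors, Gp9 (-0.97, 0.217) and Pf4 (1.20, 0.384) of platelets, Col1a2 (0.47, 0.3) and Cldn5 (0.35, 0.361) of stroma and endothelium, and Gata2 (0.97, 0.141) and Cma1 (-1.77, 0.391) of mast cells. Of 10 T and NK cell genes 4 passed the bound, and Cd3e, Cd4, Cd8a, Cd2, Thy1 and Ncr1 did not. Gzmb changed by -3.09 (0.345), and the changes of 8 of the 10 were above 0. On second tumor arrays Epb42, a red cell membrane gene, fell by 0.88 (0.0461).

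The profile of the 9 late granule probe sets above the bound, as the mean of their standardised values over the 8 arrays, was set against 8519 other genes as a description of likeness. The 8 arrays come from 4 sources and share array numbers, so the correlations carry no test. The genes most like it were Gimap1, a GTPase of lymphocytes (r = 0.984), Cyp4f18, a hydroxylase of leukotriene B4 (0.959), Zfp623 (0.959), Slc52a3, a riboflavin transporter (0.958), Rnf44 (0.954), Pilrb1, a paired receptor of myeloid cells (0.954), Ssr4 of the endoplasmic reticulum translocon (0.954) and Cd300lf, a myeloid surface receptor (0.951). Cyp4f18 read 236 and 23.4 on the second and first arrays of tumor 1, 45.3 and 2.40 on those of tumor 2 and 147 and 22.8 on those of tumor 3, against 2.99 and 0.49 in parental cells. Gimap1 moved over a narrower range, at 217 and 98.4 on the second and first arrays of tumor 1, 157 and 96.4 on those of tumor 2 and 163 and 134 on those of tumor 3, against 84.6 and 78.2 in parental cells. Cyp4f18 (2.16, 0.0248), Pilrb1 (2.08, 0.0248) and Slc52a3 (0.75, 0.0385) were higher on second tumor arrays, and none of the 8 was called in tumors against parental cells (adjusted p from 0.0517 for Zfp623 to 0.551 for Rnf44). Of the members, Cd177 (0.965), Ngp (0.956) and S100a9 (0.935) were closest to the mean profile, and the Mmp9 probe sets (0.686 and 0.699) farthest.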

How the data were processed

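The arrays were Affymetrix Mouse Genome 430A 2.0, with RNA of 3 splenic tumors and the parental line on 2 arrays each. The deposited intensity values are linear signals per probe set, made by the authors with MAS5 per the submitters' processing notes; the sources used here give no MAS5 version, settings or detection calls. Each array had a trimmed mean of about 150, and scaling of this kind lets a strong RNA class lower the rest. Platform symbols were updated by gene ID to RefSeq (GRCm38.p6, 20351 probe sets matched), and 64 control probe sets were left out. 20380 probe sets had 1 symbol, 691 several and 1555 none.

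Values were log2(signal + 16), which understates changes of low signals. Probe sets above the 40th percentile of their array on at least 2 arrays were kept. Unlike a summary by gene, each probe set was tested. limma 3.58.1 in R 4.3.3 compared 3 tumor values, each averaged over its duplicate arrays, with the 2 parental arrays, second with first tumor arrays (6 arrays, tumor as a block), and the tumors among themselves (8 arrays, a mean per source), two-sided, with Benjamini-Hochberg adjustment at 0.05 over all probe sets kept. The fits were checked on simulated data with the median spread of all probe sets and the parental cells as 1 fixed culture, where 3.4% to 7.8% of calls were false. That check held no deviation shared by arrays of the same number, which the data have, so its share of false calls may not hold here. It also does not measure detection for genes with a wider spread. Array numbers pair the arrays (deviations correlated at 0.434 to 0.594), so block fits were run. List genes were represented by their probe set with the highest mean. Alternatives are given in the closing section. The members and lists were chosen with earlier results of these data known. Named genes were the members, called genes of each list or else the 2 of lowest p, and the 8 genes of most like pattern. Other genes named (those called only between second and first arrays, those described as under the bound, and Csf3r, Prtn3, Itgb2, Il6 and Gata1) were picked with their values known. So were Cebpb, Fcer1a and Gzmb. The number of arrays limits the precision.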

Additional observations from a re-analysis of the deposited data

How the results depend on the processing

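Among 327 single probe set values under alternatives, 37 lost a call (Ngp and Pglyrp1 in tumors, and Ngp, S100a9 and Pglyrp1 on second arrays) and 7 gained one. No tumor or second-array difference changed sign, and ranges among tumors have none. In tumors against parental cells 104 probe sets were called (2 of them late granule). The counts were 45 (1) with a pseudocount of 64, 107 (1) with a pseudocount of 1, 22 (0, with 3149 probe sets and 6 members at an unadjusted p under 0.05) with no filter, 91 (1) with quantile normalization, 65 (2) with 1 probe set per gene and 110 (1) with a trended robust prior. They were 489 (1) with all 8 arrays and a mean per source, 1952 (5) with the replicate block added to that fit and 99 (0, with 2026 probe sets and 3 members unadjusted) with the replicate block and a random source. They were 62 (0, 4 unadjusted) on first tumor arrays alone and, in comparisons chosen after seeing the data, 5 (0, 2 unadjusted) among arrays of number 1 and 12 (0, 4 unadjusted) among arrays of number 2. Median centring turned the split of 74 up and 30 down into 67 up and 44 down. Leaving out 1 sample gave 9 to 94 calls and 0 to 3 late granule calls, with 0 late granule calls by limma without either parental array (3 unadjusted each), where the spread of the remaining one is taken to equal that of the tumors. The late granule median of 1.58 became 0.82 with a pseudocount of 64, 0.71 on first and 2.36 on second tumor arrays and 0.75 among arrays of number 1, and 0.94 to 1.92 without 1 sample.

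Between second and first tumor arrays 848 probe sets were called (3 late granule). The counts were 0 (0) by limma at pseudocount 1 (4000 and 7 at an unadjusted p under 0.05) and also without the filter (5069 and 9), 2030 (3) with a pseudocount of 64, 527 (3) with 1 probe set per gene and 2595 (2) with the parental cells included. Without 1 tumor they were 0 to 138 (0 to 2), with 0 by limma without tumor 2 (2910 and 8 unadjusted), and the median of 1.36 became 0.77 to 1.80. Among the tumors 188 probe sets were called, and 787 with the replicate block (2 late granule), 88 at pseudocount 1 and 87 without the filter. The cause of these shifts was not tested. Low signals of most members in parental cells limit how far their changes can be sized.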
